A study of Mus musculus with 4 samples.

Results

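The autosomal boundaries of topologically associated domains (TADs) that were found in only one of the WT and Firre KO Hi-C matrices numbered 815, of 3167 boundaries called in both matrices together. They comprised 285 of the 1461 WT boundaries (WT-only, 19.5%, 95% Wilson interval 17.6 to 21.6%) and 530 of the 1706 boundaries of the matrix labelled Firre KO, here the KO-labelled matrix (KO-only, 31.1%, 28.9 to 33.3%). Members were chosen by a rule on the contact values themselves. The genome was divided into 40-kb bins, and the score of a bin was the log2 of the mean contact between the 12 bins before and the 12 bins after it, relative to the mean of this value over the chromosome. A low score therefore means few contacts across the bin. A boundary was a bin with the lowest score within 10 bins on each side and a score of -0.5 or lower, and a boundary was assigned to one matrix only when the other matrix had no boundary within 5 bins (200 kb). The remaining 1176 boundaries of each matrix were shared.

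Hi-C records pairs of DNA sites that are ligated because they lie close together in the nucleus. TADs are stretches of chromosome whose sites contact each other more than they contact the neighbouring stretch. In mammals the cohesin ring is thought to extrude loops of chromatin until it meets the DNA-binding protein CTCF, and many TAD boundaries carry CTCF sites, the starts of active genes, or both. Loss of a boundary can bring the enhancers of one domain into reach of genes in the next.

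The series measured male mouse embryonic stem cells (mESCs) with 2 Hi-C libraries in each of 2 groups, WT and Firre KO. Firre is an X-linked long non-coding RNA gene rich in CTCF sites, and the study used its deletion to ask whether such a locus is needed for a TAD boundary. Per the study's methods the libraries of a group were technical duplicates, cut with HindIII, and the deposited values are 1 pooled matrix per group, which leaves no replicate to set against any difference. WT cells were the N3 line in 2i medium; Firre KO cells were grown in 2i with irradiated feeder fibroblasts that were then depleted, although a sentence of the study's results places both on feeders. Whether the Firre KO cells derive from N3 is not given in the sources used here, so genotype, culture and possibly line cannot be told apart. The matrices hold no RNA, and the cell type could not be checked against markers.

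The matrices differed as a whole before any boundary was called. WT held 65611035 read pairs and the KO-labelled matrix 46635652, of which 16.1% and 35.6% joined different chromosomes. The standard deviation of the score over the 58570 autosomal bins scored in both was 0.38 in WT and 0.59 in the KO-labelled matrix, so that 12.1% of bins lay at -0.5 or lower in the first and 23.2% in the second. The median counting error (SE) of a score was 0.039 and 0.054. The bin wholly inside the Firre gene (mm9, chrX:47920001-47960000) had 1550 X-linked read pairs in WT and 1144 in the KO-labelled matrix. The deletion was thus not visible in the read pairs.

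Sequences at leading boundaries are shown because they carry the core of the CTCF motif, its most conserved letters. The core was searched on both strands of mm9, and 17.1% of all scored autosomal bins held at least 1 match. Of the 12 members with the largest score gap in each group, 3 WT-only and 7 KO-only bins held a match. Each sequence is 40 bases long and is written 5′ to 3′ on the strand of the motif, with its 12-letter core in capitals.
WT-only, in Col24a1, chr3:145028356-145028395, + strand: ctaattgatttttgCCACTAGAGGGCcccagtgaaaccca
WT-only, at Slc25a37, chr14:69859778-69859817, - strand: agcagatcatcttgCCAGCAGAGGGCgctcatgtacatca
KO-only, at Refbp2, chr1:173400560-173400599, + strand: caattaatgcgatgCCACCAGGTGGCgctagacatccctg
KO-only, at Refbp2, chr1:173406531-173406570, - strand: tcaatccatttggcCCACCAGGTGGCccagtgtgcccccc
KO-only, at Ddost and Pink1, chr4:137875587-137875626, + strand: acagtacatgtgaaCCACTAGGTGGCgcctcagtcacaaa
KO-only, at Ddost and Pink1, chr4:137874587-137874626, - strand: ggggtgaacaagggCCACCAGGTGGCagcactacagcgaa
A match is a stretch of letters and does not show that CTCF was bound there. The bin at Refbp2 held matches on both strands, as did the bin at Ddost and Pink1, which had 4 matches in all.

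WT-only boundaries had WT scores that ran from -1.93 to -0.50 with a median of -0.67, and scores in the KO-labelled matrix that ran from -2.53 to 0.30 with a median of -0.47. These values chose the members and are given as a description, with no test. The score was higher in the KO-labelled matrix at 196 of the 281 members scored in both, and at 158 of them the 95% counting interval of the difference excluded 0. It was lower at 85 members, 44 of them with an interval that excluded 0, so a WT-only boundary was often a place where both matrices had few contacts across. In either direction the interval excluded 0 at 202 of the 281 (71.9%), near the 67.2% of all autosomal bins scored in both matrices (30.6% higher and 36.6% lower in the KO-labelled matrix). The median difference (KO minus WT) was 0.21, with an order-statistic interval of 0.16 to 0.27, which reflects spread over bins only. Its direction turned with a square of 24 bins (-0.061, -0.12 to -0.011), and the interval included 0 when shared meant within 1 bin (0.053, -0.0048 to 0.10).

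At the KO-only boundaries, nearly all differences ran in one direction. Scores in the KO-labelled matrix ran from -2.94 to -0.50 with a median of -0.89, and WT scores from -1.47 to 0.26 with a median of -0.35. The score was lower in the KO-labelled matrix at 528 of 530 members, and the interval excluded 0 at 505 (95.3%), always with the lower score in the KO-labelled matrix, which held for 36.6% of all bins. The rule used these scores, so nothing is read from that count. The median difference was -0.57 (-0.60 to -0.53). Shared boundaries also had lower scores in the KO-labelled matrix, with a median difference of -0.32 at the WT bin. Scores of -1 or lower in the member's own matrix were found at 31 WT-only members (10.9%) and 195 KO-only members (36.8%). The matrices also differed at shared boundaries, where the mean score at the WT bin was -0.85 in WT and -1.21 in the KO-labelled matrix. Shares at -1 or lower were not computed for all bins or shared boundaries, so nothing is read from this contrast.

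Differences of at least 0.5 were counted beside all bins. The score of the KO-labelled matrix exceeded that of WT by at least 0.5 at 58 of 281 WT-only members (20.6%), and 3.7% of all 58570 bins did so. It was at least 0.5 below WT at 309 of 530 KO-only members (58.3%), compared with 10.4% of all bins. The rule used this contrast, so nothing is read from these counts. At the threshold, the 5 WT-only members nearest to it had WT scores of -0.5037 to -0.5002, and the 5 WT minima just outside had -0.4997 to -0.4954. For KO-only members the corresponding ranges were -0.5047 to -0.5004 inside and -0.4989 to -0.4964 outside. Within 0.1 of the threshold lay 93 WT-only members (32.6%) and 79 KO-only members (14.9%).

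**Figure D1:**
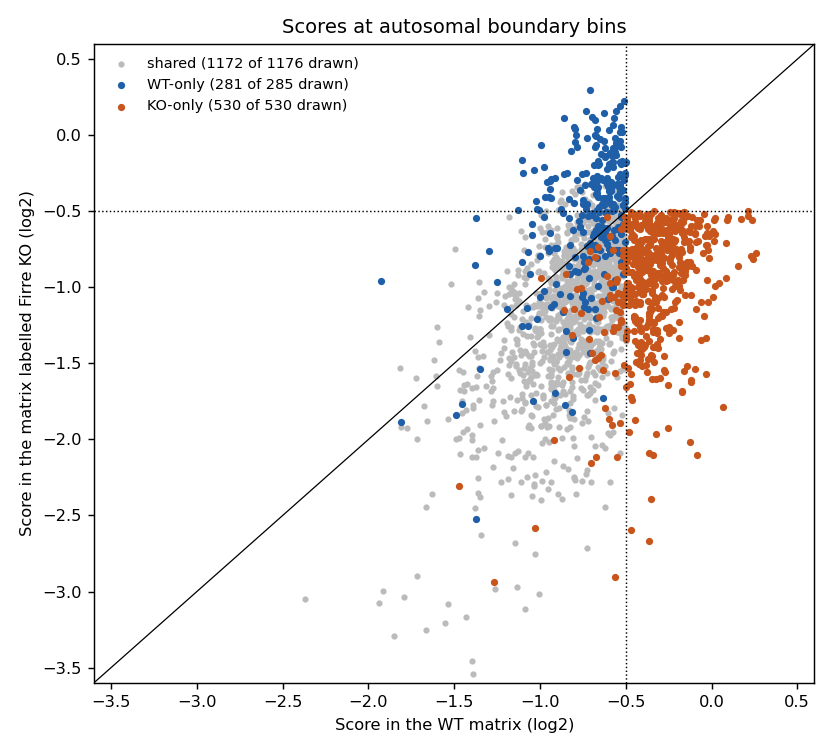
Score in the WT matrix (x axis, log2) against score in the KO-labelled matrix (y axis, log2) for each WT-only, KO-only and shared boundary bin, with dotted lines at -0.5 and a diagonal of equal scores. KO-only points lie below the diagonal at 528 of 530 members, and WT-only points lie on both sides of it.

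What the other matrix held near each member fell into 3 kinds. At 82 WT-only and 282 KO-only members the other matrix had a local minimum within 5 bins that stayed above -0.5. For these KO-only members the lowest WT score within 5 bins ran from -0.50 to 0.18 with a median of -0.39, all above -0.5 by this definition. At 145 WT-only and 96 KO-only members the other matrix reached -0.5 or lower within 5 bins without having its lowest point there. At 56 WT-only and 152 KO-only members it had neither a minimum nor a low score. At the remaining 2 WT-only members it had no score within 5 bins.

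In the second kind, 89 of the 145 WT-only and 66 of the 96 KO-only members had a boundary of the other matrix 6 to 10 bins away. A low score without a minimum within 5 bins already implies a lower point outside them. Over all members, a boundary of the other matrix lay 6 to 10 bins (240 to 400 kb) away at 97 WT-only members (34.0%, 28.8 to 39.7%) and at 97 KO-only members (18.3%, 15.2 to 21.8%). Of these, 95 WT-only and 94 KO-only members had a member of the opposite group at that distance. The rule keeps boundaries of 1 matrix more than 10 bins apart, which largely fixes this pairing. The counts of 97 and 97 therefore cover largely the same places, over different totals. The share of all bins with a boundary at that distance was not computed, so nothing is read from these counts. The histone gene cluster on chromosome 13 was such a place. The WT-only boundary at chr13:23760001-23800000 held starts of 7 Hist1 genes within 1 bin, with a score of -1.49 in WT and -1.84 in the KO-labelled matrix, and a KO-only boundary at Zfp322a (chr13:23480001-23520000) lay 280 kb from it with scores of -0.92 and -2.001. Both bins were thus low in both matrices, and the lowest bin differed. No boundary of the other matrix lay within 1 Mb of 46 WT-only members (16.1%) and 140 KO-only members (26.4%). The other matrix held 1706 boundaries for WT-only members and 1461 for KO-only members. No share over all bins was computed, so these percentages are not compared.

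**Figure D2:**
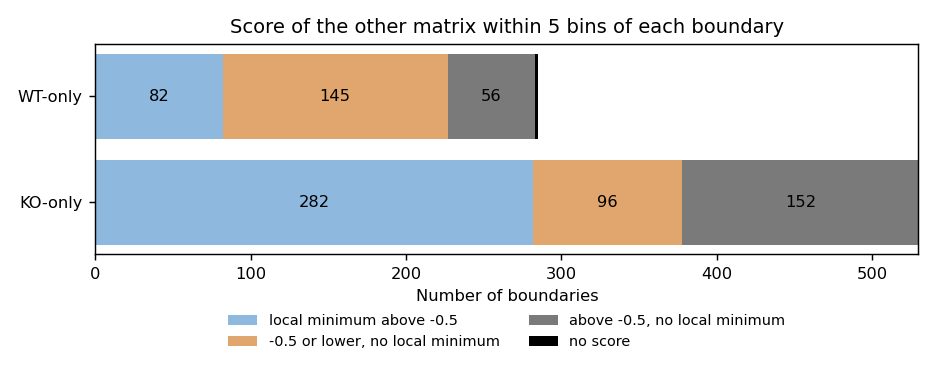
Number of WT-only and KO-only boundaries (x axis) by the score of the other matrix within 5 bins, as stacked bars. A local minimum above -0.5 is the most frequent kind at KO-only boundaries (282), and a score of -0.5 or lower without a local minimum is the most frequent at WT-only boundaries (145).

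Contacts across the boundaries were compared with contacts within the flanking domains, after each contact was divided by the chromosome's mean at its distance. Averaged over the WT-only boundaries, contacts across were 0.619 of expected in WT and 0.728 in the KO-labelled matrix, and contacts within were 1.101 and 1.103. At KO-only boundaries, contacts across were 0.818 of expected in WT and 0.535 in the KO-labelled matrix, with 1.11 and 1.16 within. At shared boundaries the values across were 0.575 and 0.453. The rule scored contacts across, so these values are a description. In read pairs, the square across a WT-only boundary held 212 to 2824 pairs in WT (median 1290) and 18 to 1903 in the KO-labelled matrix (median 773). The square across a KO-only boundary held 158 to 3701 pairs (median 1693.5) and 59 to 1624 (median 618.5).

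**Figure D3:**
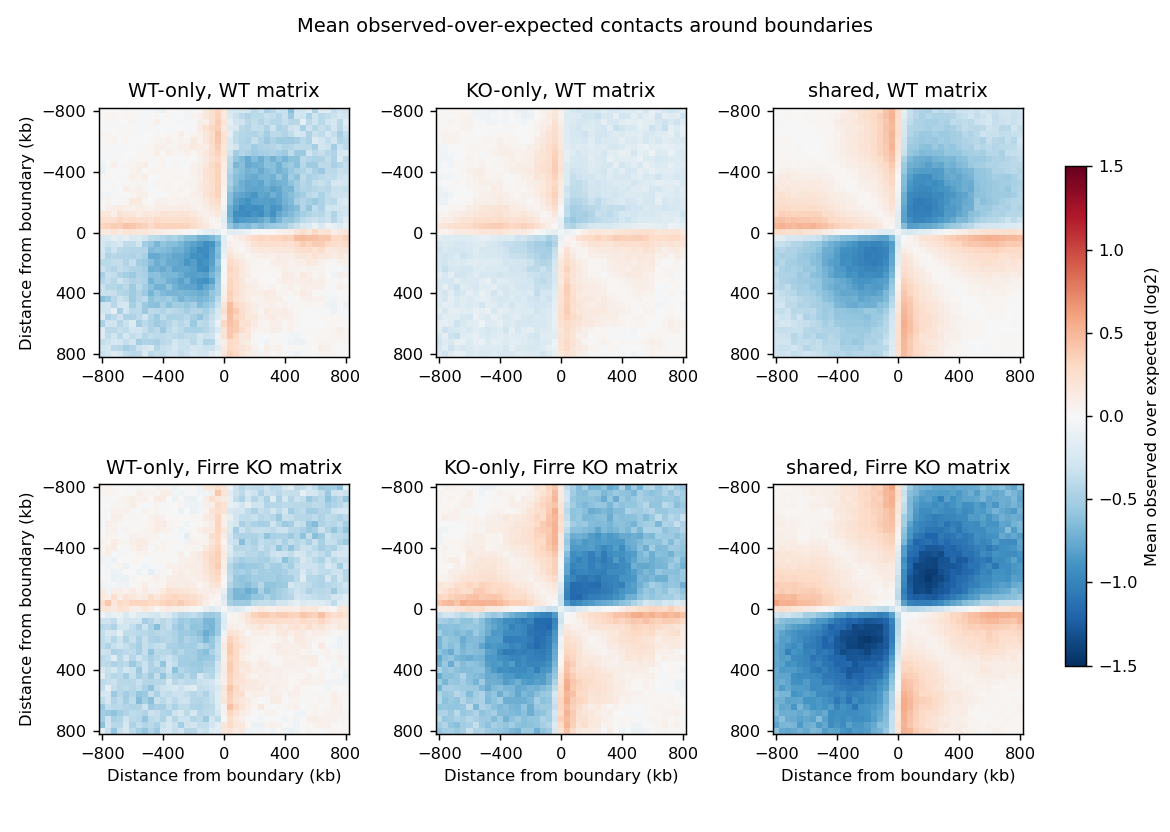
Mean contact over the expected value at its distance (log2 colour scale) within 800 kb of WT-only, KO-only and shared boundaries, with the WT matrix above and the KO-labelled matrix below; both axes give the distance from the boundary in kb. The off-diagonal squares, contacts across the boundary, are pale at KO-only boundaries in WT (0.818 of expected within 12 bins) and dark in the KO-labelled matrix (0.535).

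The WT-only boundary with the largest gap lay in Col24a1, a fibrillar collagen gene, at chr3:145000001-145040000. Its score was -0.71 in WT (95% counting interval -0.80 to -0.62) and 0.30 in the KO-labelled matrix (0.22 to 0.38). WT had 1155 read pairs across it and the KO-labelled matrix 1459, although the latter was the shallower matrix. Next came a bin at Pla2r1, which encodes a phospholipase A2 receptor (chr2:60280001-60320000), with scores of -0.86 and 0.11 and with 1429 and 1618 read pairs. At both bins the KO-labelled matrix had neither a local minimum nor a score of -0.5 within 5 bins.

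Of the other leading WT-only bins, 6 are named by their genes. The bin at chr16:15600001-15640000 contained the starts of Mcm4, a subunit of the replicative helicase, and Prkdc, the catalytic subunit of DNA-dependent protein kinase, with scores of -0.80 and 0.06. It was the only WT-only member that remained one, within 1 bin, under all 13 alternative settings. It passed the alternative threshold of -0.8 only narrowly, with an unrounded WT score of -0.8035 and a counting interval of -0.911 to -0.696. That it alone was kept therefore rests on a margin smaller than its counting error. A bin at Slc25a37, a mitochondrial iron importer (chr14:69840001-69880000), had scores of -0.99 and -0.06, and a bin at Utp20, a factor of ribosome assembly, and Slc5a8, a monocarboxylate transporter (chr10:88280001-88320000), had -1.10 and -0.25. The deepest of the leading WT-only bins, at Cd109 and the sialic acid transporter gene Slc17a5 (chr9:78440001-78480000), had scores of -1.93 and -0.96 and was still depleted in the KO-labelled matrix. A bin with scores of -1.11 and -0.16 lay beside Hmcn1, a gene for an extracellular matrix protein (chr1:152880001-152920000). Another, with -0.79 and -0.00109, overlapped the potassium channel subunit gene Kcnab1, with the start of Ssr3 within 1 bin (chr3:65120001-65160000). The remaining 4 of the 12, at chr13:61760001-61800000, chr13:79520001-79560000, chr1:110720001-110760000 and chr4:90520001-90560000, had no protein-coding gene start within 1 bin. In all, 6 of the 12 had none, and 3 had a start in the bin itself.

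Among the 12 leading KO-only boundaries, 11 had a protein-coding gene start in the bin and all 12 had one within 1 bin. The same held for 24.9% and 47.0% of all scored bins, and for 3 and 6 of the 12 leading WT-only boundaries. Over all members the groups were close, with 50.4% and 77.0% of KO-only and 48.8% and 71.9% of WT-only boundaries. The contrast of the leading bins thus rests on 12 bins per group chosen by score gap. The largest KO-only gap was at chr1:173400001-173440000, where Refbp2, a gene for a messenger RNA export factor, starts. The score was -0.56 in WT (-0.64 to -0.49) and -2.90 in the KO-labelled matrix (-3.12 to -2.68), with 1491 and 206 read pairs across. Contacts across were 0.644 and 0.115 of expected, and contacts within were 1.14 and 0.990. At Stoml3, a stomatin family gene, and Nhlrc3 (chr3:53280001-53320000) the scores were -0.47 and -2.59, with 1628 and 214 read pairs. Both bins were also low in WT, near the threshold.

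The bin at the start of Ercc4, a nuclease gene of nucleotide excision repair (chr16:13080001-13120000), was not low in WT. Its WT score was -0.08 (-0.14 to -0.03), and its score in the KO-labelled matrix was -2.10 (-2.26 to -1.94). WT had 2874 read pairs across it, 0.997 of expected, and the KO-labelled matrix had 403, 0.260 of expected. It was the only leading KO-only member that remained one under all 13 settings. At Wdr11, which encodes a WD-repeat protein (chr7:136720001-136760000), scores were -0.35 and -2.39, with 2349 and 367 read pairs.

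Among the remaining leading KO-only bins, several held clusters of gene starts. The bin at chr8:73360001-73400000 had 9 protein-coding starts within 1 bin, Kcnn1 (a calcium-activated potassium channel) and Arrdc2 among them, and scores of -0.34 and -2.10. The bin at chr4:137840001-137880000, with Ddost (a subunit of the enzyme that attaches sugar chains to proteins), Pink1 (a mitochondrial kinase) and Kif17 (a kinesin motor), had -0.25 and -1.93 and lay 2800 kb from the nearest WT boundary. At Ube4a and the T cell receptor subunit genes Cd3g and Cd3d (chr9:44760001-44800000) the scores were -0.12 and -1.61, with 2999 and 624 read pairs. At Hcfc2 and Tdg, a thymine DNA glycosylase of base excision repair (chr10:82120001-82160000), they were -0.12 and -1.62. The other 4 lay at C1qtnf1, Cant1 and Lgals3bp (chr11:118280001-118320000, -0.33 and -1.96), at Cdk5rap1 (chr2:154160001-154200000, -0.55 and -2.11), at Akr1e1 (chr13:4640001-4680000, -0.17 and -1.68) and at Sept3 and Cenpm (chr15:82080001-82120000, -0.70 and -2.15). Across the 12, contacts across were 0.579 to 0.997 of expected in WT and 0.115 to 0.349 in the KO-labelled matrix, a separation that their choice by gap largely fixes, and contacts within were 1.08 to 1.34 and 0.897 to 1.37. The share of a bin's read pairs that joined other chromosomes was 33.5 to 51.7% at these bins in the KO-labelled matrix and 10.2 to 23.5% in WT. Its part in the score was not tested.

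**Figure D4:**
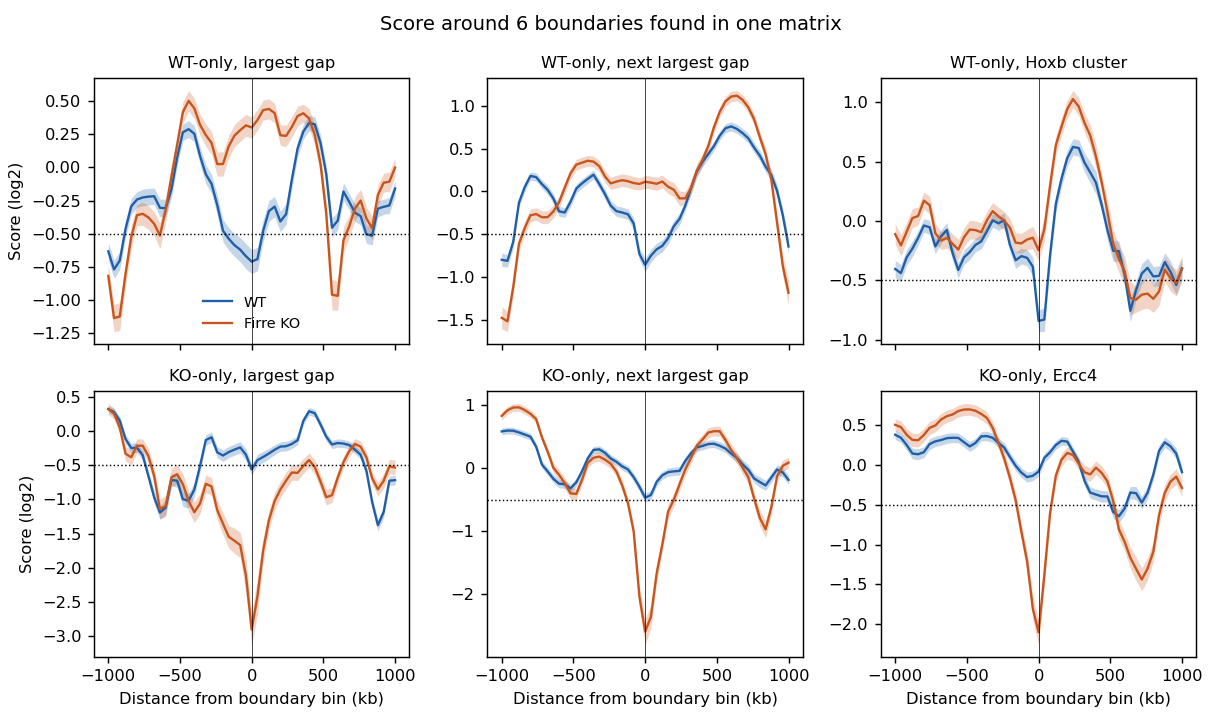
Score (y axis, log2) against distance from the boundary bin (x axis, kb) in WT and in the KO-labelled matrix, with 95% counting intervals as bands, for 6 members: the largest and next largest gap of each group, the WT-only bin at the Hoxb cluster, and the KO-only bin at Ercc4. At the Ercc4 bin the WT score is -0.08 and the other -2.10; at the Hoxb bin they are -0.84 and -0.25.

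Among developmental genes, the Hoxb cluster stood at a WT-only boundary. Hox genes encode homeobox transcription factors that pattern the body axis, and Hoxb13, Hoxb9, Hoxb8, Hoxb7 and Hoxb6 started within 1 bin of chr11:96080001-96120000. The score was -0.84 in WT and -0.25 in the KO-labelled matrix, with 1636 and 1348 read pairs across and contacts at 0.571 and 0.880 of expected. The second matrix still had a local minimum within 5 bins. These genes were 5 of 40 autosomal Hox genes (12.5%, beside 2.60% of all protein-coding genes) and a single boundary, and 17 Hox genes lay within 1 bin of a shared boundary. Histone genes within 1 bin of WT-only boundaries were 9 of 67 (13.4%) and came from only 2 boundaries, and 1 was at a KO-only boundary. Unlike at Hoxb, both of these WT-only boundaries had a lower score in the KO-labelled matrix (-1.49 in WT and -1.84, and -0.63 and -0.91). The 9 olfactory receptor genes at WT-only boundaries (0.814% of 1106) also came from 2 boundaries.

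Lineage genes were counted beside all genes. Of all 21418 autosomal protein-coding genes, 2.60% had a start within 1 bin of a WT-only boundary and 5.08% within 1 bin of a KO-only boundary. None of the 23 autosomal genes of the pluripotency list was at either kind. In the fibroblast list of 25 genes, Col1a2, a chain of type I collagen, was at a WT-only boundary with scores of -0.69 and -0.28, and Snai1, a repressor of epithelial genes, at a KO-only boundary with -0.35 and -0.79. In the mesoderm and endoderm list of 25, Hand2, a heart and limb factor (-0.52 and 0.02), and Gsc, a factor of the embryonic organizer (-0.51 and -0.26), were at WT-only boundaries, and Cdx2, a trophoblast and gut factor (-0.38 and -0.55), at a KO-only boundary. The forebrain factor Emx1, from the neural lineage list, was at a WT-only boundary with scores of -0.61 and -0.72, and the 95% counting interval of their difference included 0. Of 23 chromatin architecture genes, only Ctcfl, the germline paralogue of Ctcf, was at a member, a KO-only boundary with -0.32 and -0.74. Each of these lists gave at most 2 genes per group.

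Gene families were counted in the same way. Of 362 zinc finger genes named Zfp, 10 (2.76%) were at WT-only and 11 (3.04%) at KO-only boundaries. Of 77 cytoplasmic ribosomal protein genes, 3 and 4 were. Of 1106 olfactory receptor genes, 0.814% and 0.995% were, and of 327 vomeronasal receptor genes (only 247 in scored bins) 0.306% and 0.917%. No keratin gene of 51 was at either kind. At WT-only boundaries the score was lower in the KO-labelled matrix for most of the Zfp genes and all of the ribosomal protein genes. The 3 ribosomal protein genes came from 2 boundaries, both already counted under Zfp through Zfp647 and Zfp598. For some of the Zfp and ribosomal protein genes the counting interval of the difference included 0. The protocadherin Pcdh7, which has a role in cell adhesion, was at a KO-only boundary with scores of -0.02 and -1.10 that remained one under all 13 settings.

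The rule used no gene or sequence feature, and these were therefore compared with all bins and with shared boundaries. A protein-coding gene start lay in the bin at 48.8% of WT-only boundaries (43.0 to 54.6%), 50.4% of KO-only boundaries (46.1 to 54.6%), 46.9% of shared boundaries (44.1 to 49.8%) and 24.9% of all scored bins. The intervals cover counting error only, and neighbouring bins are not independent. The intervals of members and shared boundaries overlapped. At KO-only boundaries the share was 57.3% where WT had no local minimum and 44.3% where WT had one above -0.5, and the same split gave 56.2% and 31.7% at WT-only boundaries. With read pairs in place of corrected contacts, 361 boundaries were WT-only and 21.9% of them had a gene start (17.9 to 26.4%), an interval that includes the share of all bins. KO-only boundaries had 47.4% in that setting.

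CTCF core matches were counted next. A match lay in the bin at 33.3% of WT-only (28.1 to 39.0%), 36.8% of KO-only (32.8 to 41.0%) and 36.5% of shared boundaries (33.8 to 39.3%), beside the 17.1% of all bins. In read pairs without the bin weights, the share was 14.1% at WT-only and 31.4% at KO-only boundaries. Around all 3 kinds of boundary, gene starts and matches per bin peaked at the boundary bin. Gene starts were 0.726 per bin at WT-only, 0.791 at KO-only and 0.735 at shared boundaries, compared with 0.353 over all bins.

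**Figure D5:**
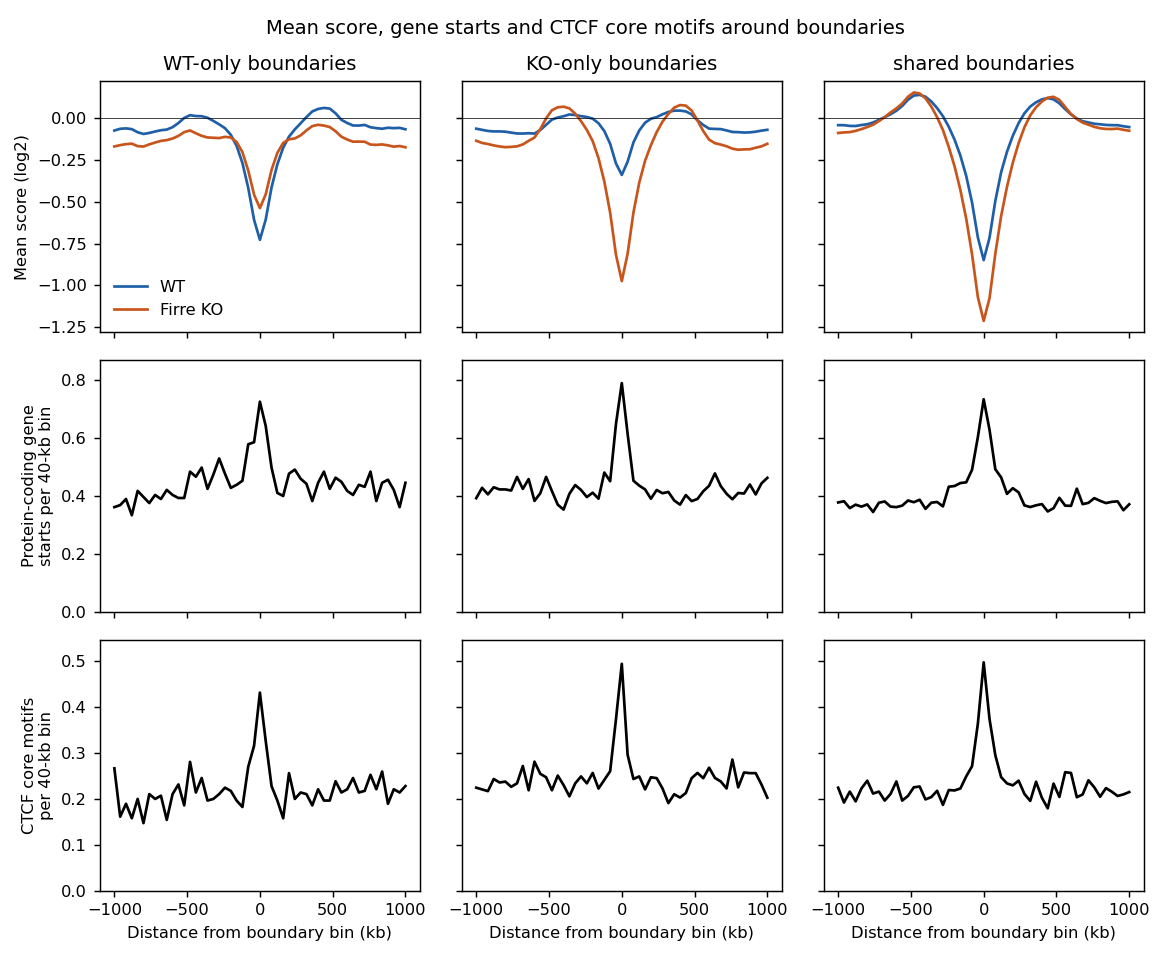
Mean score in both matrices (top, log2), protein-coding gene starts per 40-kb bin (middle) and CTCF core motifs per 40-kb bin (bottom) against distance from the boundary bin in kb, for WT-only, KO-only and shared boundaries. Gene starts and motifs peak at the boundary bin in all 3 columns, with 0.726, 0.791 and 0.735 gene starts per bin.

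Other properties of the bins were compared in the same way. The median GC content was 42.7% at WT-only, 43.3% at KO-only, 43.0% at shared boundaries and 41.4% over all bins, and the median number of HindIII sites was 12, 12, 12 and 13. The median difference of GC content between the flanks was 1.31 percentage points at WT-only (1.12 to 1.47), 1.22 at KO-only (1.09 to 1.36), 1.60 at shared boundaries (1.47 to 1.74) and 1.23 over all bins, so the intervals of KO-only and shared boundaries did not overlap. The median distance to the nearer chromosome end was 39.5 Mb at WT-only and 31.4 Mb at KO-only boundaries. This distance was not compared with all bins or shared boundaries. A gene of 200 kb or more overlapped 9.12% of WT-only, 10.9% of KO-only and 11.4% of shared boundaries, beside 17.5% of all bins. The median share of read pairs to other chromosomes in the KO-labelled matrix was 36.1% at WT-only and 36.6% at KO-only bins, beside 36.7% over all bins. A lincRNA gene started within 1 bin of 9.82% of WT-only, 10.8% of KO-only and 10.0% of shared boundaries, compared with 5.71% of all bins.

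Members were found on all 19 autosomes. WT-only boundaries made up 11.8% (chromosome 11, 8 of 68) to 23.4% (chromosome 1, 26 of 111) of a chromosome's WT boundaries. KO-only boundaries made up 18.4% (chromosome 6, 18 of 98) to 39.4% (chromosome 9, 37 of 94). On each chromosome the KO-only share exceeded the WT-only share, by less than 1 percentage point on chromosome 6. Over all autosomes this order turned at a threshold of -0.3, where 434 boundaries (22.5%) were WT-only and 397 (21.0%) KO-only, and with the scores of the KO-labelled matrix scaled to the spread of WT (29.7% and 24.9%). With no threshold in the other matrix the shares were 13.9% WT-only and 14.5% KO-only.

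Which bins were members depended on the setting. With read pairs in place of corrected contacts, 69 of the 285 WT-only members (24.2%) and 190 of the 530 KO-only members (35.8%) were still members of their group within 1 bin. When the scores of the KO-labelled matrix were scaled to the spread of WT, by a factor of 0.651, 434 boundaries were WT-only and 341 were KO-only. This scaling can only remove boundaries of the KO-labelled matrix, so no WT-only member could be lost, and 341 of the 530 KO-only members were kept. When the measure was contacts across over contacts within, 169 (59.3%) and 308 (58.1%) were kept. Under all 13 settings, 1 WT-only and 15 KO-only members were kept. Sharing within 1 bin could remove no member of either group.

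The 15 KO-only members kept under all settings had WT scores of -0.57 to -0.02 and scores in the KO-labelled matrix of -2.10 to -0.90. The alternative threshold of -0.8 keeps only members with a score that low in the KO-labelled matrix. The setting with no threshold in the other matrix removes every member with a WT local minimum within 5 bins. Nothing is therefore read from the depth of the 15 or from their lack of a WT minimum. Besides Ercc4, the deepest was a bin at Jkamp and Gpr135 (chr12:73160001-73200000), with scores of -0.14 and -1.51 and 2599 and 561 read pairs across. In it, as at Pcdh7 (1.12 of expected across in WT, 0.529 in the other matrix) and at the secreted kinase gene Fam20c (chr5:139160001-139200000, 1.04 and 0.423), contacts across were not depleted in WT. A bin in Smarca2, which encodes a chromatin remodelling ATPase (chr19:26760001-26800000), had scores of -0.06 and -1.35, with 2313 and 577 read pairs. At the chaperone gene Hsph1 (chr5:150440001-150480000) they were -0.22 and -1.28, at Nid1, a basement membrane gene (chr13:13520001-13560000), -0.17 and -0.95, and at Mapt, the gene for tau (chr11:104120001-104160000), -0.41 and -1.04. Further bins lay at Tor1aip1 and Tor1aip2, whose products bind torsins at the nuclear envelope (chr1:157840001-157880000, -0.20 and -1.08), at Nsun6 and Arl5b (chr2:15000001-15040000, -0.37 and -1.24), at the growth factor gene Gdf7 (chr12:8280001-8320000, -0.51 and -1.08) and at Ndufa11, a subunit of respiratory complex I (chr17:56840001-56880000, -0.57 and -1.26). The remaining 3 of the 15, at chr1:156840001-156880000 (-0.34 and -1.39), chr13:71160001-71200000 (-0.43 and -0.90) and chr16:74800001-74840000 (-0.31 and -1.07), had no protein-coding gene start within 1 bin and overlapped no protein-coding gene.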

How the data were processed

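Each matrix pooled 2 libraries. The authors mapped the reads to mm9, filtered, binned at 40 kb and corrected them iteratively with HiC-Pro 2.7.8 (version per the labels). The deposited values are a contact signal in which kept bins have equal totals; bin weights and whole read pairs were recovered from it (100% of entries whole within 0.05). No column of per-sample values was left unused (0). The deposited bin coordinates were the other input, and their chromosome lengths equalled those of the mm9 reference. Scores needed 50% of the 144 bin pairs of a square. Counting errors came from read pairs by the delta method, and cover counting error only. Gene starts came from the GENCODE annotation of that reference. Members, lists and alternatives were chosen with earlier results of these data known; 2 alternatives were added after seeing the scores. Named genes are up to 3 per leading member, the 12 largest score gaps per group among members with whole squares in both matrices, plus genes of the fixed lists; genes at the members kept under all settings were named after their values were seen. Some genes that the rule names are not reported here. The scripts, tested on simulated data, used Python 3.11.15, numpy 2.4.6, scipy 1.17.1, pandas 2.3.3 and statsmodels 0.14.6.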

Additional observations from a re-analysis of the deposited data

How the results depend on the processing

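Of 78 recomputed values, 48 stayed within 1.5 times the count or within the interval of the value reported, 29 moved and 1 reversed. The cause of each change was not tested. The number of WT-only boundaries (285) was 435 with a square of 6 bins, 434 at a threshold of -0.3, 116 at -0.8, 487 when shared meant within 1 bin, 188 within 10 bins and 434 with the KO scores scaled to the WT spread. The number of KO-only boundaries (530) was 248 with no threshold in the other matrix and 341 with scaled KO scores. The median difference at WT-only boundaries (0.21) reversed to -0.061 with a square of 24 bins, and was 0.38 with read pairs, 0.30 with 6 bins, 0.053 within 1 bin, 0.28 within 10 bins, 0.12 with no threshold in the other matrix, 0.34 with scaled KO scores and 0.27 for contacts across over within. At KO-only boundaries (-0.57) it was -0.62 at a threshold of -0.8, -0.64 with no threshold in the other matrix, -0.62 with contacts over the mean at their distance, -0.35 with scaled KO scores and -0.61 for contacts across over within. The share of WT-only boundaries with a gene start (48.8%) was 21.9% with read pairs, 35.9% with 6 bins, 56.5% with 24 bins, 41.2% at -0.3, 58.6% at -0.8 and 55.7% with no threshold in the other matrix. For KO-only boundaries (50.4%) it was 55.5% at -0.8, 57.3% with no threshold in the other matrix and 56.0% with scaled KO scores. Scaling and contacts across over within were chosen after seeing the data. The labels match no WT library to a Firre KO library, so there was no pairing to use. The libraries of a group were pooled into 1 matrix, which left no replicate. Depth limits single bins: the square across a member held as few as 18 read pairs.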
